A study of Mus musculus with 8 samples.

Results

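The genes described here make cholesterol, sense it, bring it into the cell and its membranes, or move it out and store it. They were 31 genes chosen by name for these roles, and 30 of them were row names among the 16279 genes of the authors' deposited table for input RNA. Abcg1 was not analysed here. They comprised 8 genes of the mevalonate and isoprenoid steps, 11 of the squalene and sterol steps, 4 of sterol sensing, 4 of uptake and intracellular transport, and 3 of efflux and storage. All 30 had an adjusted p, so none of these 30 was lost to the filter on low means. Why Abcg1 was absent is not known, and efflux and storage was left with 3 of its 4 listed genes.

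N2a cells, from a mouse neuroblastoma, received a small interfering RNA (siRNA) against Emg1 or a control siRNA and were harvested after 48 h. Emg1 encodes a methyltransferase of 18S ribosomal RNA. Their poly(A) RNA gave 4 groups of 2 libraries each: precipitates with an antibody against N6-methyladenosine (m6A) after Emg1 siRNA and after control siRNA, and input RNA after Emg1 siRNA and after control siRNA. Both siRNAs were delivered by lipid transfection, with no untransfected group, and the labels do not tell separate cultures from repeat libraries of 1 culture, so the p-values measure a spread that may be technical. A change in RNA per cell cannot be told apart here from a change in the mix of cells.

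No value per library was given in either table, and the depth of each library is unknown. For each gene the authors' deposited table held a mean normalized count over the fitted libraries, a log2 fold change of knockdown over control, its standard error (SE), a p-value and an adjusted p from DESeq2. No direction is written in the file, and Emg1 had a log2 fold change of -1.73 ± 0.11 (SE), or 30.2% of control, in the authors' deposited table; all fold changes are read on that basis as knockdown over control. A gene is said to have risen or fallen where its adjusted p was under 0.05. Intervals are 95% intervals computed from the fold change and its SE. Of the 10 neuroblastoma markers, 9 were in the table, with mean counts of 3005 for Phox2a and 10441 for Hand2 in the authors' deposited table. Nefm was near 0, with a mean of 1.32 in the authors' deposited table. Markers of other cells that make much cholesterol were mostly low: 1 of 4 hepatocyte markers was in the table, at a mean of 9.97, and among glial markers the means were 3.24 to 9.87 for Sox10, Mog and Gfap, 12.7 for Aldh1l1 and 688 for Mbp, in the authors' deposited table. Of leukocyte markers 2 of 5 were listed, at means of 3.96 and 15.4, and of fibroblast markers 3 of 6, at means of 33.7 to 1357 in the authors' deposited table. The part of such cells in the results was not tested.

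Cholesterol is built from acetyl-CoA. Acetyl-CoA units are joined into HMG-CoA, which leads through mevalonate to isoprenoid building blocks, and squalene made from these is closed into lanosterol and trimmed to cholesterol. When membranes of the endoplasmic reticulum are low in sterol, the escort protein encoded by Scap carries the transcription factor SREBP-2, encoded by Srebf2, to the Golgi, where proteases release its active part. Proteins encoded by Insig1 and Insig2 hold that complex back when sterol is plentiful. Surplus oxysterols activate LXR receptors, one of which is encoded by Nr1h2, and their targets include the exporter gene Abca1 and the ubiquitin ligase gene Mylip.

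Most cholesterol genes fell. Of the 30 genes, 24 fell, 1 rose and 5 did not pass, with a median log2 fold change of -0.46 in the authors' deposited table. Of all 12807 genes with an adjusted p, 15.5% fell and 17.1% rose, and their median log2 fold change was 0.00. Among the 9124 genes whose mean count lay in the range of the members, 289 to 8122, 17.3% fell, the median was 0.02 and the middle 90% of log2 fold changes ran from -0.51 to 0.47. Falls of at least 0.5 on the log2 scale were made by 13 members, against 5.75% of all genes, and falls of at least 1 by 3 members, against 1.44%. That synthesis genes fell was known when the members were chosen, so these shares are given as a description.

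**Figure D1:**
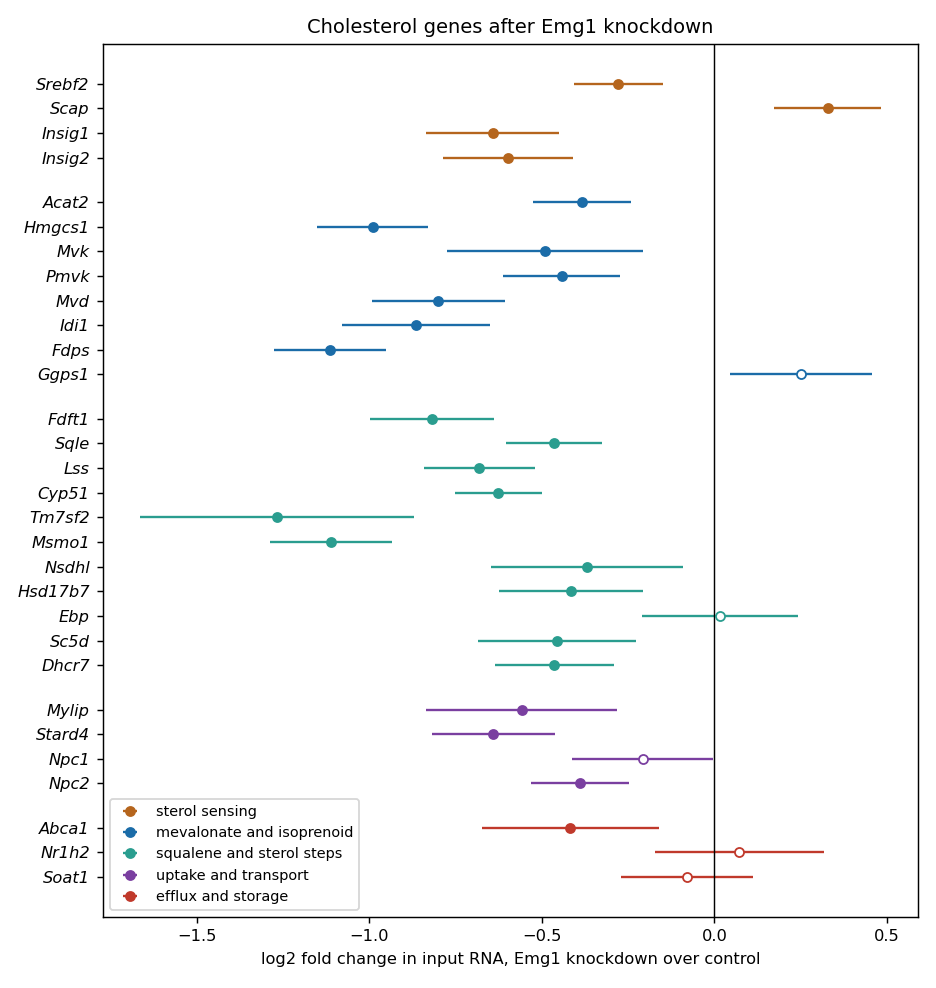
Each point is the log2 fold change of 1 cholesterol gene in input RNA, Emg1 knockdown over control, with its 95% interval; filled points passed an adjusted p under 0.05, open points did not, and genes run down each role in pathway order. Filled points left of 0 run from -1.27 for Tm7sf2 to -0.28 for Srebf2, while Scap, at 0.33, is the only filled point to the right.

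The sensing genes split. Srebf2, the gene of the transcription factor that drives the pathway, fell by 0.28 ± 0.07 (log2, SE; adjusted p = 0.000178, DESeq2), to 82.5% of control, in the authors' deposited table. Both genes of the retaining proteins fell, with values further from 0: Insig1 by 0.64 ± 0.10 and Insig2 by 0.60 ± 0.10 in the authors' deposited table, to 64.1% and 66.1% of control. Their intervals overlapped each other, -0.836 to -0.449 and -0.787 to -0.409. Neither overlapped that of Srebf2, -0.407 to -0.150, although those of Insig2 and Srebf2 nearly met. Scap went the other way and was the only member that rose, by 0.33 ± 0.08 (adjusted p = 0.000269, DESeq2), to 126% of control with an interval of 113% to 140%, in the authors' deposited table. The genes of the partner proteins Scap and SREBP-2 thus changed in opposite directions, with intervals on opposite sides of 0.

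In the first part of the synthesis pathway 7 of 8 genes fell and 0 rose by the DESeq2 adjusted p, with a median of -0.65 in the authors' deposited table; at an unadjusted p under 0.05, 1 rose, Ggps1. Hmgcs1, which makes HMG-CoA, fell by 0.99 ± 0.08 to 50.3% of control. Acat2, the cytosolic thiolase that joins the first acetyl-CoA units, fell by 0.38 ± 0.07, per the authors' deposited table. Its near copy Acat3 had -0.38 ± 0.16 and did not pass (adjusted p = 0.0584, DESeq2), and reads shared by these genes could have been split between them. The kinase genes Mvk and Pmvk, which add phosphate to mevalonate in turn, fell by 0.49 ± 0.14 and 0.44 ± 0.09 in the authors' deposited table. Larger falls followed for the decarboxylase gene Mvd, by 0.80 ± 0.10, for the isomerase gene Idi1, by 0.86 ± 0.11, and for Fdps (mm10, chr3:89093588-89101967), which makes farnesyl diphosphate, by 1.11 ± 0.08 in the authors' deposited table. The intervals of Mvd, Idi1, Fdps and Hmgcs1 all lay below the median of the 19 synthesis genes, -0.49.

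Ggps1, at a branch of the pathway, did not pass. Its enzyme extends farnesyl diphosphate to geranylgeranyl diphosphate, which is used for protein prenylation and not for sterols. Its log2 fold change was 0.25 ± 0.11 in the authors' deposited table, with an adjusted p of 0.0528 (DESeq2), just above the threshold. The interval of Ggps1, 0.04 to 0.46, did not overlap that of Fdps, -1.28 to -0.95.

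In the squalene and sterol steps 10 of 11 genes fell and 0 rose, by the DESeq2 adjusted p and at an unadjusted p under 0.05 alike, with a median of -0.47 in the authors' deposited table. Fdft1, which commits farnesyl diphosphate to squalene, fell by 0.82 ± 0.09, more than the next enzyme gene in order, Sqle, squalene epoxidase, which fell by 0.47 ± 0.07, per the authors' deposited table; the intervals of Fdft1 and Sqle, -0.999 to -0.639 and -0.61 to -0.33, did not overlap. Lss, which closes the sterol rings, fell by 0.68 ± 0.08, and Cyp51, the lanosterol demethylase, fell by 0.63 ± 0.06, both in the authors' deposited table. The lowest value of all members was that of the C14 sterol reductase gene Tm7sf2 (mm10, chr19:6062821-6067850), -1.27 ± 0.20, or 41.5% of control with an interval of 31.5% to 54.7%, in the authors' deposited table. It also had the lowest mean count of the members, 289, and the widest SE. Lbr, a lamin B receptor with the same reductase activity and not a member, had -0.10 ± 0.07 and did not pass (adjusted p = 0.292, DESeq2) in the authors' deposited table. Msmo1, the C4 methyl oxidase gene, fell by 1.11 ± 0.09 to 46.3% of control. The spans of Fdft1 and Tm7sf2 overlap Ctsb and Vps51 at their ends, and these neighbours had log2 fold changes of 0.15 ± 0.06 and 0.19 ± 0.12, neither of which passed, in the authors' deposited table.

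In the later steps the values ran from -0.46 to 0.02. Nsdhl and Hsd17b7, whose enzymes complete the removal of the C4 methyl groups, fell by 0.37 ± 0.14 and 0.42 ± 0.11 in the authors' deposited table. Sc5d and Dhcr7, of the last desaturation and reduction steps, fell by 0.46 ± 0.12 and 0.46 ± 0.09 in the authors' deposited table. Nsdhl had the weakest support among the members that fell, with an adjusted p of 0.0314 (DESeq2). Ebp, the sterol isomerase gene between these steps, did not pass: its log2 fold change was 0.02 ± 0.12 (adjusted p = 0.931, DESeq2) in the authors' deposited table. The interval of Ebp, -0.21 to 0.24, did not reach the synthesis median of -0.49.

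Within synthesis the range was therefore wide, from -1.27 to 0.25, against a median SE of 0.09. Ranked by the Wald statistic, the fold change divided by its SE, Fdps was number 21 from the lowest of all 12807 genes, Msmo1 number 28 and Hmgcs1 number 30. Ranked by the log2 fold change itself among the 11134 genes with a mean of at least 100, Tm7sf2 was number 37, Fdps number 78 and Msmo1 number 80. The members near the middle of the list, such as Sqle and Dhcr7, were at numbers 862 and 867 in that order.

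**Figure D2:**
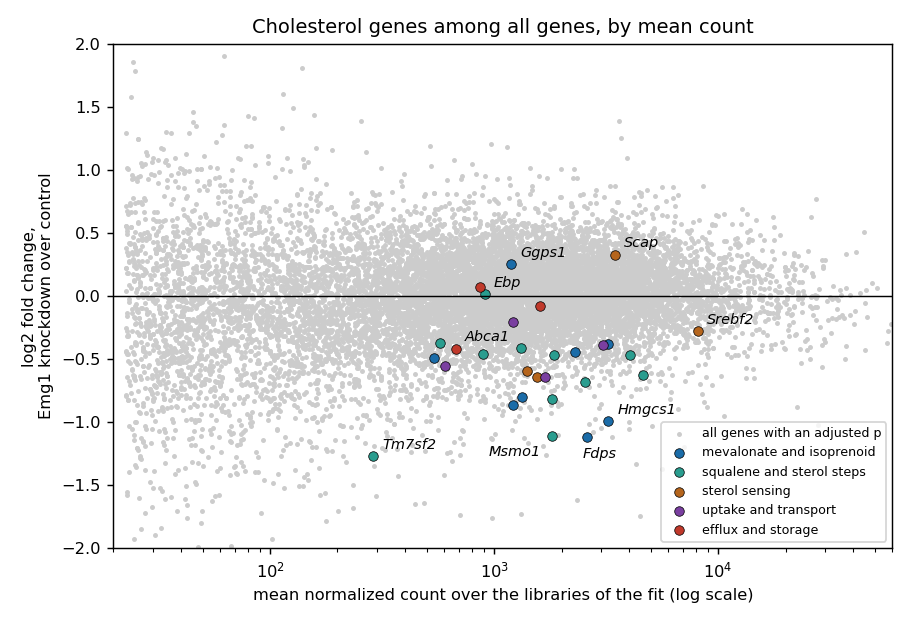
The log2 fold change, Emg1 knockdown over control, is plotted against the mean normalized count on a log scale, with all genes with an adjusted p in grey and cholesterol genes coloured by role; 21 genes lie outside the axes. Most cholesterol genes lie below 0, in the lower part of the grey cloud. Fdps, Msmo1 and Hmgcs1 are near -1 at means of 1813 to 3228, and Ggps1, Ebp and Scap are at or above 0.

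Of the genes grouped as uptake and transport, 3 of 4 fell and 0 rose by the DESeq2 adjusted p or at an unadjusted p under 0.05. Their median was -0.47 in the authors' deposited table. No lipoprotein receptor gene is among these 4, so their falls do not give a direction for uptake. Receptor genes outside the members went both ways, with Scarb1 at -0.52 ± 0.07 and Lrp1 at 0.52 ± 0.07 in the authors' deposited table. Mylip, a ubiquitin ligase that marks lipoprotein receptors for degradation, fell by 0.56 ± 0.14 to 67.9% of control. Stard4, a soluble sterol carrier, fell by 0.64 ± 0.09 to 64.1% in the authors' deposited table, a value like that of Insig1. The products of Npc1 and Npc2 together export cholesterol from late endosomes and lysosomes. Npc2 fell by 0.39 ± 0.07 in the authors' deposited table, while Npc1 had -0.21 ± 0.10 and did not pass (adjusted p = 0.116, DESeq2). The intervals of Npc2, -0.53 to -0.25, and Npc1, -0.41 to -0.0027, overlapped, so these values do not separate the pair. The span of Npc1 shares 8982 bases with a neighbouring gene, Rmc1, and the sources used here do not say whether reads were counted by strand.

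Efflux and storage had the median nearest to 0 of the roles, -0.08 in the authors' deposited table, with 1 of 3 genes fallen. Abca1, the exporter of cholesterol to apolipoproteins, fell by 0.42 ± 0.13 to 74.9% of control (adjusted p = 0.00681, DESeq2) in the authors' deposited table. Nr1h2, which encodes LXR beta, had 0.07 ± 0.13, and Soat1, which esterifies cholesterol for storage, had -0.08 ± 0.10, with adjusted p of 0.712 and 0.583 (DESeq2) in the authors' deposited table. The intervals of Nr1h2, -0.17 to 0.32, and Soat1, -0.27 to 0.11, did not reach the synthesis median of -0.49. With 3 genes, the difference in share from the synthesis genes, 1 of 3 fallen against 17 of 19, is given as a count only and was not tested.

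Among all genes with an adjusted p, 15.5% fell and 17.1% rose. In the wider network, the lists of sensor processing and of other sterol transport had small counts of calls near this background. Such counts are no result about those lists. Of 10 genes for processing and turnover of the sensor, 2 fell, 1 rose and 7 did not pass, with a median of -0.03 in the authors' deposited table. Mbtps2, the second protease that releases SREBP, fell by 0.31 ± 0.10 in the authors' deposited table. Syvn1, a ubiquitin ligase of the endoplasmic reticulum, rose by 0.38 ± 0.11, also in the authors' deposited table. The first protease gene, Mbtps1, had -0.07 ± 0.06 and did not pass (adjusted p = 0.383, DESeq2) in the authors' deposited table. Srebf1, the gene of the related factor SREBP-1, had -0.03 ± 0.07 and did not pass (adjusted p = 0.825, DESeq2) in the authors' deposited table. Erlin1, which encodes a membrane protein of the endoplasmic reticulum, had 0.11 ± 0.09 and did not pass (adjusted p = 0.340, DESeq2) in the authors' deposited table. Mbtps1 and Srebf1 were named after their values were seen, as was Lbr.

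Among 17 further genes of uptake, transfer, efflux and sterol modification with an adjusted p, 4 fell and 2 rose, with a median of -0.13 in the authors' deposited table, and these counts are read against the same background. The lipoprotein receptor gene Scarb1 fell by 0.52 ± 0.07 and Scarb2, of lysosomal membranes, by 0.39 ± 0.07 in the authors' deposited table. In the other direction Lrp1, a large endocytic lipoprotein receptor, rose by 0.52 ± 0.07 and Abca7, a lipid transporter of the same family as Abca1, by 0.51 ± 0.07 in the authors' deposited table. Abca1 and Abca7 thus went in opposite directions.

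Enzymes that use isoprenoids fell in 6 of 13 cases (46.2%) and rose in 1, with a median of -0.16 in the authors' deposited table. Of all genes with an adjusted p, 15.5% fell and 17.1% rose. Nus1, a subunit of the enzyme that makes dolichol precursors, fell by 0.46 ± 0.07, Coq2, which attaches the side chain of coenzyme Q, by 0.47 ± 0.13, and Rabggtb, a subunit of the Rab prenylating enzyme, by 0.24 ± 0.06 in the authors' deposited table. Zmpste24, a protease for prenylated proteins, rose by 0.46 ± 0.09 in the authors' deposited table. Fatty acid synthesis, a neighbouring pathway of the related factor SREBP-1, fell in 6 of 11 cases (54.5%) and rose in 1. Its median was -0.20 in the authors' deposited table. In both lists the share that fell was above that of all genes, and this difference was not tested. Scd2, a desaturase gene, fell by 0.50 ± 0.05, Acss2, which makes acetyl-CoA from acetate, by 0.47 ± 0.10, and the desaturase gene Fads2 by 0.32 ± 0.09, while Fasn, fatty acid synthase, rose by 0.45 ± 0.05 in the authors' deposited table. These medians stood nearer to 0 than the -0.49 of the synthesis genes, and the difference between lists was not tested.

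**Figure D3:**
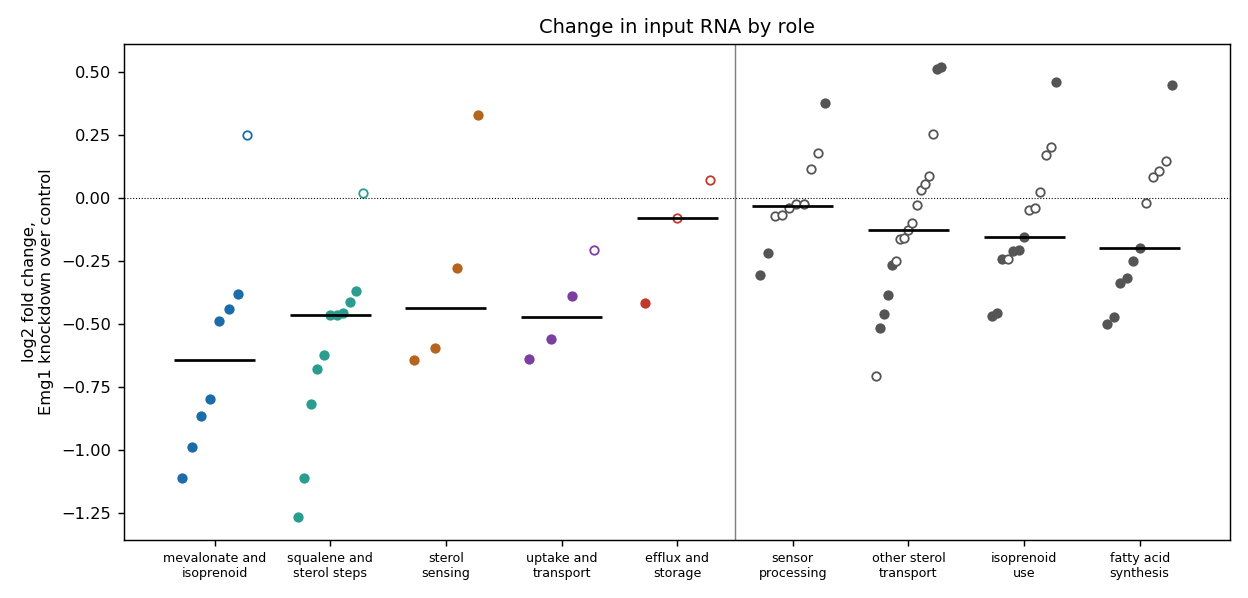
Log2 fold changes in input RNA, Emg1 knockdown over control, are shown for each gene with an adjusted p, by role, with filled points for an adjusted p under 0.05 and bars for medians; cholesterol genes stand left of the grey line and the other lists right of it. Medians lie between -0.65 and -0.44 for synthesis, sensing and uptake, and between -0.20 and -0.03 for efflux and the other lists.

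The promoters are shown because SREBP-2 is known to act through short elements near the start of such genes. Its part in the changes of these members was not tested. RefSeq windows on GRCm38.p6 (mm10) of 300 bases, 250 before and 50 after the outermost start of a gene, were matched for 25 of the 30 genes. Those not matched were Fdps, Fdft1, Sqle, Stard4 and Npc1. The 250 bases before the start follow for the genes with the classical sterol regulatory element (Hmgcs1, Srebf2), for Msmo1 with a looser form, and for Scap, the member that rose. They lie at chr13:119690101-119690350 on the plus strand for Hmgcs1, chr15:82147019-82147268 on the plus strand for Srebf2, chr8:64733579-64733828 on the minus strand for Msmo1 and chr9:110333038-110333287 on the plus strand for Scap, and are written 5′ to 3′ on the gene's strand. Capitals mark the sterol regulatory element TCACCCCA or its looser form TCACNCCA, and the CCAAT box on either strand, read as ATTGG on the minus one.
Hmgcs1: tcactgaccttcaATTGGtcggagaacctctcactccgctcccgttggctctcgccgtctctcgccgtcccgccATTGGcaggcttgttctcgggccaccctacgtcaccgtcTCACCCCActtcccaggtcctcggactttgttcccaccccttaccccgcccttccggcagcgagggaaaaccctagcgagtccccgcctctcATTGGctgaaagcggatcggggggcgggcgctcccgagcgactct
Srebf2: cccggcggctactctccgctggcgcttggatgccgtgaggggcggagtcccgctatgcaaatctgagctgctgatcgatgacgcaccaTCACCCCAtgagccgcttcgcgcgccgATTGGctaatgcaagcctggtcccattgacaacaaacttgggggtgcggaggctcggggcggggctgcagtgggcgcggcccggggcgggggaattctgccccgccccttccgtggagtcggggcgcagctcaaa
Msmo1: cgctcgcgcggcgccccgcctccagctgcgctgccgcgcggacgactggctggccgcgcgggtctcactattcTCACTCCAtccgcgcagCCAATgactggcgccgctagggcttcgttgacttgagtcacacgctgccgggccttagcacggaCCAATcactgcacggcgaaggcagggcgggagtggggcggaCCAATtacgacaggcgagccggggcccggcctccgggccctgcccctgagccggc
Scap: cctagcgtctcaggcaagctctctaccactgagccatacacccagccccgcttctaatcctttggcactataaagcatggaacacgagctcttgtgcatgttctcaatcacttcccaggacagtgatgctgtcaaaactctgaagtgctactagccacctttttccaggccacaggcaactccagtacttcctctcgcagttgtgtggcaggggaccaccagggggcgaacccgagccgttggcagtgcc

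Few members held the sterol element as spelled, and most held a CCAAT box. TCACCCCA, searched on both strands, was in 2 of 25 member windows (8.0%), at -137 in Hmgcs1 and -162 in Srebf2, counted from the start, against 1.47% of all 27025 gene windows and 1.35% of 9631 windows of genes with an adjusted p. The looser TCACNCCA, which includes the strict form, added Msmo1, at -177, for 12.0% of members against 4.30% of all windows. CCAAT, the box bound by NF-Y, a known partner of SREBP, was in 20 of 25 member windows (80.0%), against 38.0% of all windows and 39.5% of those of genes with an adjusted p, and 12 members (48.0%) held 2 or more boxes, against 12.1% and 15.3%. The GC box GGGCGG, bound by Sp1, was in 84.0% of members, 35.9% of all windows and 65.3% of windows of genes with an adjusted p, and the median GC content was 62.0% for members and 61.0% for genes with an adjusted p.

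The CCAAT box was not limited to members that fell. It was in 17 of the 20 fallen members with a window and in 3 of the 4 that did not pass; Ebp held 2 boxes and Ggps1 3, while Scap, Nr1h2 and, among the fallen, Abca1, Acat2 and Dhcr7 held none. Over all genes that fell, 41.4% of 1499 windows held the box, close to the 39.5% of genes with an adjusted p. The E-box CACGTG was in 5 of 25 member windows, against 7.24% of all windows and 10.3% of those of genes with an adjusted p, and the LXR direct repeat of the DR4 type in 0 of 25, against 3 windows of all genes. As spelled, the repeat was in 0 of the 9631 windows of genes with an adjusted p. Its absence from the member windows is therefore no result about them. A match is a description of letters in this window and not a test of binding or of an effect of the knockdown. The members were chosen by name for their roles, so their motif shares are given as a description.

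Differential m6A peaks were on 4 of the 30 genes, or 13.3%. Among genes with an adjusted p 14.8% carried such a peak, and 18.9% of those with a mean of at least 289, so the share of the members was near or below the background. They were on 3 synthesis genes, Pmvk, Lss and Hsd17b7, and on the sensing gene Srebf2, 1 peak each, with 0 on the 7 uptake, transport, efflux and storage genes. Signs of a peak change are given as deposited, not as gain or loss after knockdown, because the file leaves the numerator unnamed, and it holds no error for a change. Only differential peaks were listed, and whether the other 26 genes carried peaks that did not differ was not analysed here.

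The peak on Srebf2 lay at chr15:82203975-82204184 (mm10) on the plus strand, 1195 bases before the annotated 3′ end of the gene, and had a change of 1.11 on the log2 scale with a false discovery rate of 2.00e-27 in the authors' deposited table. Its fold enrichment of IP over input was low, 1.75, with a lower value in 11.0% of differential peaks, whose median was 5.525 in the authors' deposited table. The microRNA gene Mir33 lies in the same gene and did not overlap the peak. The peak on Lss, at chr10:76553180-76553480 on the plus strand, had a change of 0.83, an enrichment of 4.6 and a false discovery rate of 4.37e-07 in the authors' deposited table; a noncoding gene, 4930483K19Rik, overlaps this end of Lss and had a mean count of 12.4. The peak on Hsd17b7, at chr1:169952586-169953004 on the minus strand, had a change of 0.98, an enrichment of 6.49 and a false discovery rate of 0.000263 in the authors' deposited table. The 1 peak with a negative sign, on Pmvk at chr3:89468596-89468802 on the plus strand, had a change of -0.37, an enrichment of 1.60 and a false discovery rate of 0.00162 in the authors' deposited table.

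All 4 peaks were single blocks of 207 to 419 bases in the last part of the gene, with midpoints at 83.5% (Hsd17b7), 85.1% (Lss), 97.8% (Srebf2) and 97.8% (Pmvk) of the gene span, introns included. Their 4 genes fell, Srebf2 by 0.28, Hsd17b7 by 0.42, Pmvk by 0.44 and Lss by 0.68 on the log2 scale, in the authors' deposited table. Of all 30 members 24 fell (80%), so the falls of these 4 are no result about the peaks. By the size of its change, 81.0% of positive-sign peaks were smaller than the one on Srebf2, 72.7% than that on Hsd17b7 and 59.8% than that on Lss, and 11.7% of negative-sign peaks were smaller than the one on Pmvk. The sources used here do not say whether the peak change draws on the same input libraries as the fold change, and the part of shared libraries in these values was not tested.

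**Figure D4:**
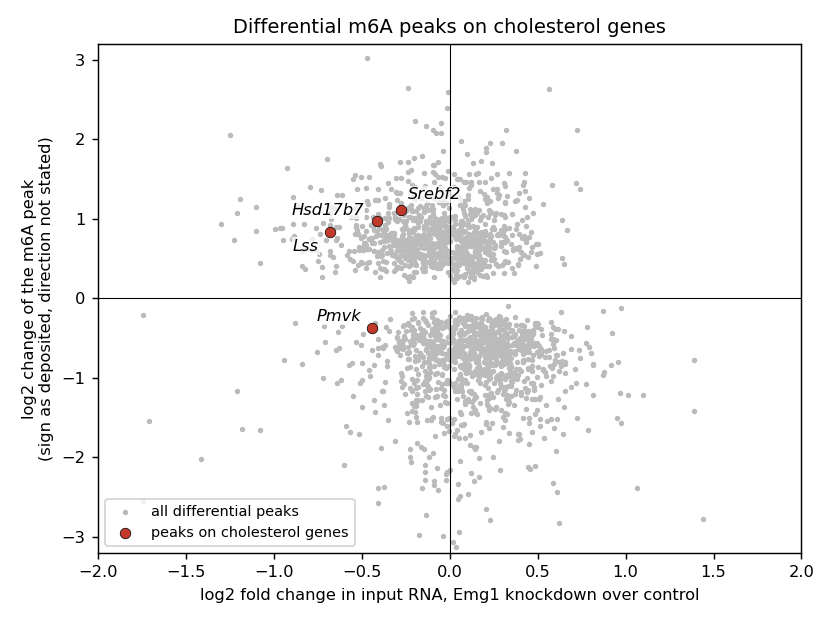
The log2 change of each differential m6A peak, with its sign as deposited, is plotted against the log2 fold change of its gene in input RNA, Emg1 knockdown over control, for 2098 peaks in grey and the 4 on cholesterol genes in red; 20 peaks lie outside the axes. All 4 red points lie left of 0, Srebf2, Hsd17b7 and Lss above the horizontal line and Pmvk below it. Of all 30 cholesterol genes 24 fell.

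In the related lists, Nus1 had 2 positive-sign peaks, with changes of 0.74 and 0.62, and Coq2 had 1 with a change of 1.23, and both genes fell, in the authors' deposited table. Fasn, which rose, had a negative-sign peak of -0.63 at an enrichment of 1.28 in the authors' deposited table. Other peaks of these lists were on Elovl6 (0.60 and 1.10), Fads1 (0.99), Osbpl9 (0.70) and Erlin1 (0.27) in the authors' deposited table.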

How the data were processed

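Trimmomatic, HISAT2, DESeq2 and the build mm10 are named, per the submitters' processing notes; the sources used here do not name their versions, the read counter, the annotation or the peak caller. Per the file headers, the input table deposited by the authors holds a mean signal (normalized counts), a log2 fold change with its SE, a Wald statistic (a score equal to their quotient), a p-value and an adjusted p; 3472 genes, all with a mean of at most 22.7, had no adjusted p. Per the file headers, the peak table deposited by the authors holds a fold enrichment ratio, a log2 change, and scores that are log10 of a p-value or false discovery rate. No values per library were used, so depth is unknown, no count model was refitted, and the precision is that of the deposited SE. The deposited adjusted p equalled a Benjamini-Hochberg adjustment over the 12807 genes that have one.

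From these tables intervals, ranks, counts, medians and positions were computed, with motifs searched in RefSeq promoter windows, in Python 3.11.15 (pandas 2.3.3, numpy 2.4.6, matplotlib 3.10.9, scipy 1.17.1); the adjustment was tested on simulated data. All members are accounted for, and of each other list the up to 4 genes with the smallest adjusted p were named. The members and lists were chosen with earlier results of these data known. Alternatives were other thresholds, adjustment over all genes, a minimum mean of 100, centring and a minimum change of 0.5. Near copies and overlapping genes are uncertain where counting could split reads; the spans of 9 members overlap another gene. Some genes of the other lists are not reported here.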

Additional observations from a re-analysis of the deposited data

How the results depend on the processing

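Counts of called members kept within 1.5 times under adjusted p thresholds of 0.01 and 0.1, adjustment over all genes, a minimum mean of 100, and centring on the median log2 fold change at that mean (0.01). With centring and with adjustment over all genes, all 30 members kept their direction and call. Nsdhl lost its call at 0.01 (adjusted p = 0.0314), and Ggps1 gained one at 0.1 and with a minimum mean of 100. Requiring an absolute log2 fold change of at least 0.5 left 13 called members of 25, 9 synthesis genes of 17, 2 sensing genes of 4 and 0 efflux genes of 1, and 0 of 3 sensor processing genes, 3 of 6 other transport genes, 0 of 7 isoprenoid-using genes and 1 of 7 fatty acid genes; by construction this removes small changes. Of the 4 peaks, 2 had a fold enrichment of at least 2, those on Hsd17b7 and Lss, and 3 had a false discovery rate under 0.001. The looser sterol element raised the count of promoters from 2 to 3. No paired analysis was possible because the tables hold no values per library; leaving out each replicate was not run for the same reason.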
